A study of Drosophila melanogaster with 800 samples.

Results

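Tubulins are the proteins that microtubules are built from: an alpha and a beta subunit pair into a dimer, and dimers stack into the hollow tubes of the spindle, the cytoskeleton and the axoneme, the core of a cilium or a sperm tail. Drosophila melanogaster carries several genes for each subunit. Some are read in nearly every cell, while others are known from 1 tissue, such as the maternal alpha-tubulin of ovary and early embryo and the testis beta-tubulin of meiotic spindles and sperm tails. The genes described here are the tubulin isotypes of the fly, chosen as 8 symbols for alpha- and beta-tubulins and looked up in a table of 35014 features by gene identifier. Of the 8 symbols, 6 matched a row: alphaTub67C (FBgn0087040, chromosome arm 3L), alphaTub84B (FBgn0003884), alphaTub84D (FBgn0003885), alphaTub85E (FBgn0003886), betaTub85D (FBgn0003889) and betaTub97EF (FBgn0003890), the last 5 all on arm 3R. The symbols betaTub56D and betaTub60D had no row under the identifiers that the annotation pairs with them and were not analysed here, so the beta-tubulins are seen in part. No other annotated gene overlaps any of the 6.

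The samples were whole flies, female and male, of 200 inbred lines of the Drosophila Genetic Reference Panel, each line made by 20 generations of full-sib mating from a wild-caught female. Every line gave 2 replicate pools for each sex, of 25 females or 30 males, which makes 800 libraries. All flies were mated, 3 to 5 days old, and reared at 25 °C on cornmeal-molasses-agar medium, and no line was treated. A level is a log2 FPKM, the logarithm of fragments scaled by transcript length and library size; it is per length, so levels of different genes can be set side by side. A feature with no read is listed at a floor of -9.97 because 0.001 FPKM had been added to all values.

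Depth, estimated from the steps between low values, ran from 7.27 to 30.6 megareads per library. The median was 11.6 megareads in females and 11.4 megareads in males. The sexes matched their labels: all female libraries exceeded all male libraries for Yp1, a yolk protein, and all male libraries exceeded all female libraries for SP, the sex peptide of the male gland, and for lncRNA:roX1, a dosage compensation RNA. Markers of gonads, nerve and muscle were all detected. The log2 sum of 21 testis markers ran from 2.99 to 6.31 in females, where 9 of the 21 had a median at the floor, against 10.8 to 12.9 in males. The log2 sum of 13 ovary germ-line markers ran from 9.85 to 11.4 in females against 7.64 to 9.40 in males. Most of the male sum, a median of 87.4%, came from exu, which is also read in testis and was higher in males, at a mean of 7.63 log2 FPKM in females and 8.27 in males; without exu the sum ran from 9.71 to 11.2 in females and from 4.96 to 7.71 in males. The median gene of a library was 0.54 log2 units lower in females than in males, so the differences of single tubulin genes below 1 unit are also given after each library's median was taken off. In whole flies, fewer cells of a type and less RNA per cell cannot be told apart.

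alphaTub67C, which encodes the maternal alpha-tubulin of the ovary, was high in every female library and near the detection limit in most male libraries. Its lowest, median and highest levels were 6.72, 7.77 and 8.57 log2 FPKM in the 400 female libraries, against -9.97, -1.26 and 4.72 log2 FPKM in the 400 male libraries. The groups did not overlap, and 3 male libraries held no read of it. The median male library held 7.99 reads of the gene and the median female library 4153. Over 200 lines the difference, female minus male, was 9.02 ± 0.08 log2 units (SE), with a limma adjusted p of 8.4e-182, and females were higher in all 200 lines. Since the males are so near the floor, the size depends on the added constant: with 1 FPKM added in place of 0.001 it was 7.13.

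betaTub85D, the testis beta-tubulin of spermatocyte spindles and sperm tails, had the opposite pattern. Its lowest, median and highest levels were -9.97, -2.16 and 2.64 log2 FPKM in females, against 7.35, 8.43 and 9.15 log2 FPKM in males. No female library reached any male library, and 20 female libraries held no read. The median female library held 5.00 reads and the median male library 7425. The difference was -10.87 ± 0.11 log2 units (SE, n = 200 lines, limma adjusted p = 2.4e-172), with males higher in all 200 lines, and -8.04 with 1 FPKM added.

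alphaTub85E, a divergent alpha-tubulin known from muscle, chordotonal organs and somatic cells of the testis, was present in males and low in females. Its lowest, median and highest levels were -9.97, -0.32 and 1.21 log2 FPKM in females, against -1.62, 3.65 and 5.30 log2 FPKM in males. Of the 400 male libraries, 398 lay above every female library, and the 2 that did not belong to line 443, described further on. The difference was -4.07 ± 0.06 log2 units (SE, n = 200 lines, limma adjusted p = 2.9e-142), again with males higher in all 200 lines, and it was -2.88 with 1 FPKM added.

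alphaTub84B, the main alpha-tubulin of most tissues, was high and close to level between the sexes. Its lowest, median and highest levels were 7.55, 8.23 and 8.70 log2 FPKM in females and 7.44, 8.07 and 8.57 log2 FPKM in males. The groups overlapped over most of their range. The difference was 0.16 ± 0.01 log2 units (SE, limma adjusted p = 2.5e-24), with females higher in 152 of 200 lines, and it was 0.70 relative to the library median.

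alphaTub84D encodes an alpha-tubulin that is nearly identical to that of alphaTub84B and, like it, is read in most tissues. Its lowest, median and highest levels were 3.77, 5.17 and 5.68 log2 FPKM in females and 4.91, 5.68 and 6.33 log2 FPKM in males. The groups overlapped, with 198 of 400 male libraries above every female one. The difference of -0.52 ± 0.02 log2 units (SE, n = 200 lines, limma adjusted p = 1.4e-84), with males higher in 198 of 200 lines, was about that of the median gene: relative to the library median it was 0.02 (adjusted p = 0.11), with the opposite sign. Because the pair are near copies, reads shared between them may have been split in the counting, and the division of signal between them is uncertain; their FPKM summed differed by 0.07 ± 0.01 log2 units, female minus male (SE, n = 200 lines, limma adjusted p = 2.0e-07), and by 0.61 ± 0.01 relative to the library median.

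betaTub97EF, a beta-tubulin described in gut and blood cells, was moderate in both sexes. Its lowest, median and highest levels were 0.19, 4.85 and 5.54 log2 FPKM in females and 0.89, 5.26 and 5.97 log2 FPKM in males. The 4 lowest libraries of each sex came from the same pair of lines, 486 and 642. The difference was -0.42 ± 0.02 log2 units (SE, n = 200 lines, limma adjusted p = 5.7e-57), with males higher in 190 of 200 lines, but it turned to 0.12 (adjusted p = 2.6e-13) relative to the library median. Its replicate 1 libraries were higher than its replicate 2 libraries by 0.25 ± 0.02 log2 units in females and 0.09 ± 0.02 in males (SE over 200 lines), and within replicate 1 alone the sex difference was -0.34, within replicate 2 alone -0.50.

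**Figure D1:**
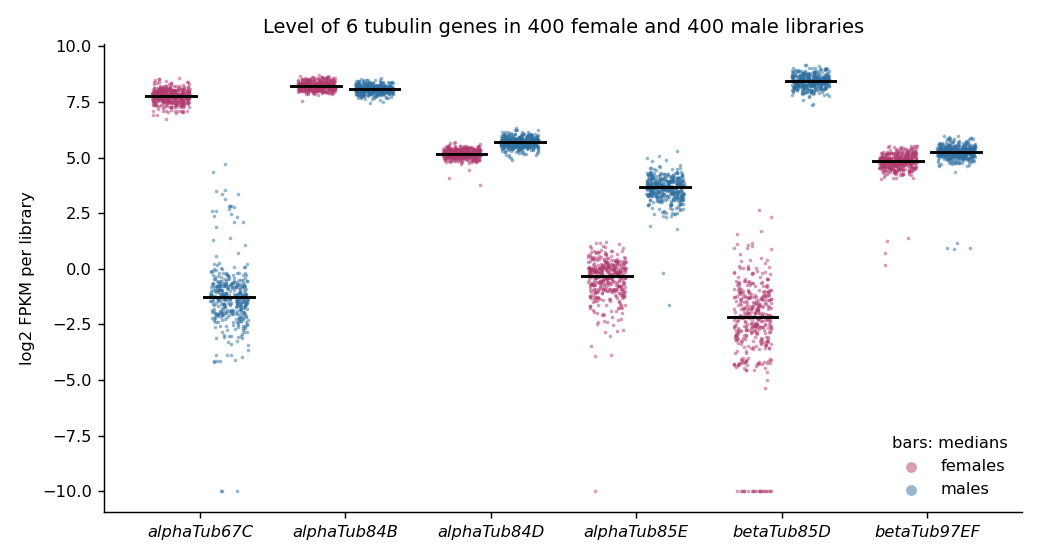
Level of each tubulin gene (log2 FPKM, vertical axis) in 400 female libraries, left, and 400 male libraries, right, of each pair; each point is a library and bars are medians. alphaTub67C and betaTub85D have no overlap between the sexes, with female and male medians of 7.77 and -1.26 for the first and -2.16 and 8.43 for the second; points at the bottom are libraries with no read.

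Called sex differences, with an adjusted p under 0.05 and at least 1 log2 unit, were therefore found for 3 of the 6 genes: alphaTub67C higher in females, and alphaTub85E and betaTub85D higher in males. At an adjusted p under 0.05 with no minimum size, all 6 passed, as did 98.3% of the 15447 features tested. With it, 20.8% were called higher in females and 37.2% higher in males, 58% in all. The 2 genes without overlap compare with 9.8% of features whose female libraries all lay above the male ones and 12.4% with the reverse. The 6 genes spread from -10.87 to 9.02 around the median feature at -0.51 log2 units. The testis and ovary marker sums given above move with the same contrast, and their part in these differences was not tested.

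Ranked by level within females, alphaTub84B stood above alphaTub67C by 0.47 ± 0.23 log2 units (SD over lines), in 199 of 200 lines. alphaTub67C stood above alphaTub84D by 2.59 ± 0.30 in all 200 lines. alphaTub84D stood above betaTub97EF by 0.37 ± 0.51, less than the spread between lines, in 173 of 200 lines. Without lines 486 and 642, described further on, they were 0.33 ± 0.30 apart, more than the spread between lines, in 171 of 198. betaTub97EF exceeded alphaTub85E by 5.27 ± 0.86 in all 200 lines, and alphaTub85E exceeded betaTub85D, the lowest, by 1.98 ± 1.55 in 186 of 200 lines.

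Ranked within males, betaTub85D led alphaTub84B by 0.35 ± 0.21 log2 units (SD over lines), in 189 of 200 lines. alphaTub84B stood 2.38 ± 0.13 above alphaTub84D, in all 200 lines. alphaTub84D and betaTub97EF, 0.47 ± 0.53 apart, were in this order in 189 of 200 lines. Without lines 486 and 642 they were 0.42 ± 0.26 apart, more than the spread between lines, in 187 of 198. betaTub97EF exceeded alphaTub85E by 1.62 ± 0.77 in 198 of 200 lines, and alphaTub67C was the lowest.

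The make-up of the alpha-tubulin pool differed between the sexes. The FPKM of the 4 alpha-tubulin genes summed to 562 ± 67 in females and 337 ± 35 in males (SD over 200 lines). alphaTub84B made 54.2 ± 3.4% of that sum in females and 80.4 ± 1.6% in males. alphaTub67C made 39.1 ± 3.8% in females and 0.25 ± 0.45% in males. alphaTub84D made 6.53 ± 0.85% in females and 15.5 ± 1.2% in males. alphaTub85E made 0.153 ± 0.071% in females and 3.84 ± 1.16% in males. The share of alphaTub67C among female lines ran from 26.2 to 47.3%, and that of alphaTub85E among male lines from 0.169 to 9.62%. The highest male share of alphaTub67C was 4.21%, in line 461.

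**Figure D2:**
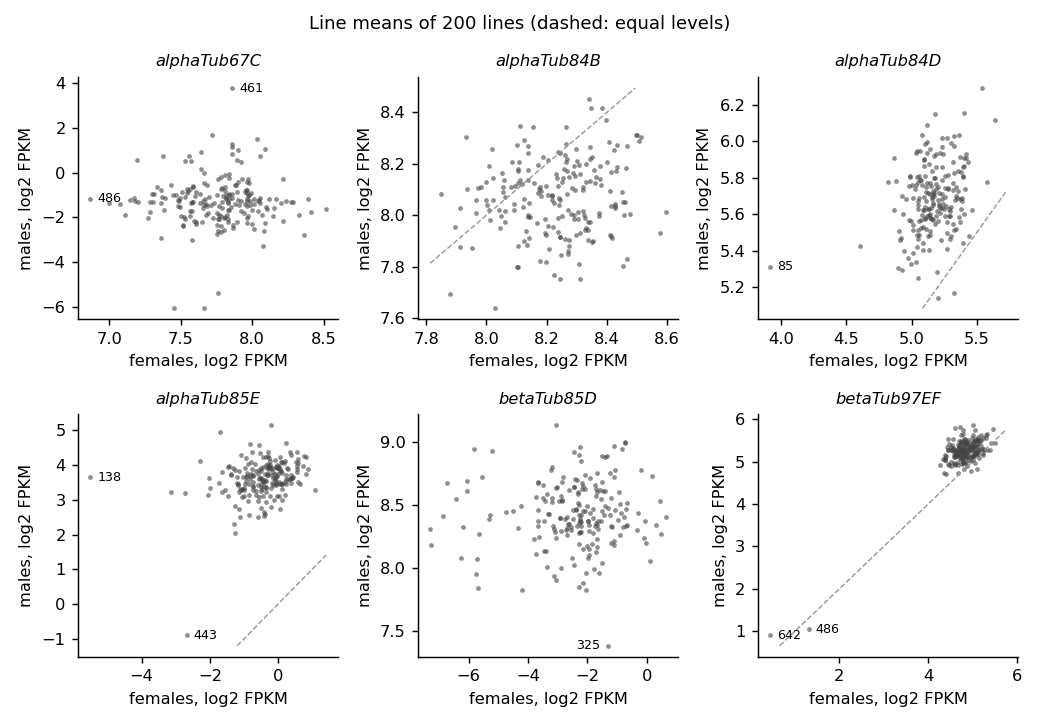
Female (horizontal) against male (vertical) line mean of each tubulin gene in log2 FPKM, 1 point per line, with equal levels dashed and the lines named in the text numbered. betaTub97EF has lines 642 and 486 far below the rest in both sexes, while alphaTub84D is low in line 85 mainly in females and alphaTub85E in line 443 mainly in males.

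Inbred lines differ by the alleles they fixed, so variation between lines beyond that between their 2 pools measures how far a gene's level follows the line. H2, the share of variance between lines within a sex, was estimated for genes with a mean of at least 0 log2 FPKM in that sex. This kept 4 of the 6 tubulin genes in females and 5 in males. For those kept, the 2 pools of a line differed by a median of 0.13 log2 units for alphaTub84B in males, the least, and 0.26 for betaTub97EF in females, the most; for the genes left out the median was 1.00 for alphaTub67C in males, 1.16 for betaTub85D in females and 0.52 for alphaTub85E in females. The 4 genes kept in females and the 5 kept in males were all called for line variation (adjusted p under 0.05). Beside them, 92.2% of features were called in females and 89.6% in males.

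alphaTub85E in males had an H2 of 0.846 (95% CI 0.801 to 0.881, n = 200 lines). betaTub85D in males had 0.730 (0.658 to 0.788), and alphaTub67C in females had 0.711 (0.635 to 0.773). The broadly expressed pair was lower: alphaTub84D had 0.513 (0.403 to 0.608) in females and 0.476 (0.362 to 0.577) in males, and alphaTub84B had 0.342 (0.214 to 0.458) in females and 0.349 (0.221 to 0.465) in males. The median over all features was 0.553 in females and 0.510 in males, so the genes high in mainly 1 sex lay above it and alphaTub84B below it. In log2 units, the line component of alphaTub84B was an SD of 0.11 in each sex, against 0.54 for alphaTub85E in males. Relative to the library median, H2 of alphaTub84B was 0.513 in females and 0.365 in males, with line SDs of 0.15 and 0.08.

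betaTub97EF had an H2 of 0.741 (95% CI 0.672 to 0.798) in females and 0.838 (0.791 to 0.875) in males, but the values were lower without the lines that stood apart. Without lines 85, 443, 486 and 642, each far from the others in a tubulin gene, H2 was 0.291 (0.158 to 0.414) in females and 0.386 (0.260 to 0.499) in males, still called in both sexes (adjusted p from the F test over 196 lines = 1.7e-05 and 1.4e-08). That of alphaTub84D in females was 0.390 without them. The other values moved by less than 0.05. H2 as given counts the mean difference between replicate numbers as spread between pools. With replicate number as a block, that difference is taken out. H2 of betaTub97EF was then 0.857 (95% CI 0.815 to 0.890) in females, above the interval given, and 0.851 in males. That of alphaTub84D was 0.599 in females and 0.568 in males, and that of alphaTub84B 0.374 and 0.393. alphaTub85E and betaTub85D in males had 0.877 and 0.760, and alphaTub67C in females 0.710.

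**Figure D3:**
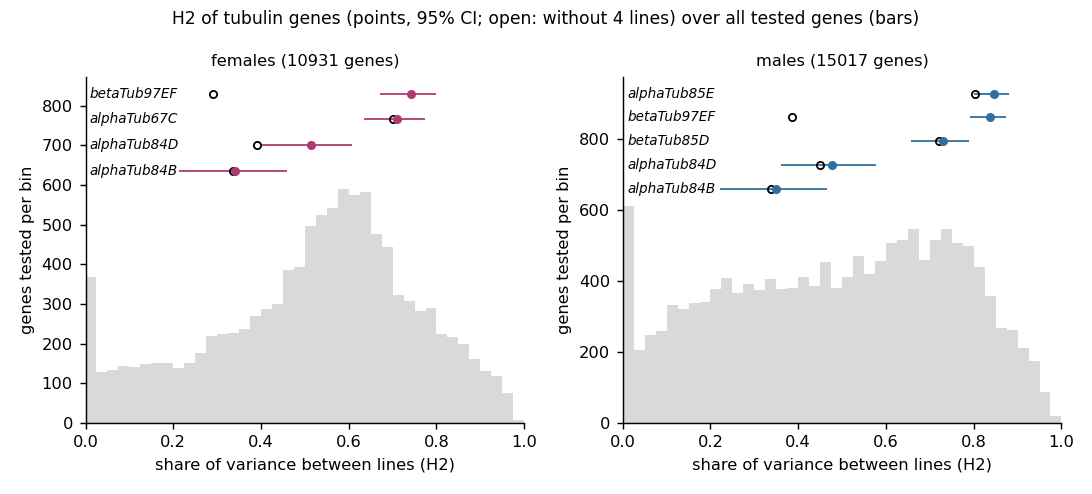
Share of variance between lines, H2 (horizontal axis), of the tubulin genes in females, left, and males, right: filled points with 95% confidence intervals use all 200 lines, open circles leave out lines 85, 443, 486 and 642, and grey bars count all tested features per bin. betaTub97EF stands at 0.741 in females and 0.838 in males with all lines, and its open circles at 0.291 and 0.386.

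Line 642 held 0.70 and 0.19 log2 FPKM of betaTub97EF in its 2 female pools and 0.93 and 0.89 in its 2 male pools. Line 486 held 1.25 and 1.37 in females and 1.17 and 0.94 in males. The median of the other lines was 4.81 in females and 5.27 in males. This put line 642 at 20.6-fold below the median in females and 20.5-fold in males, and line 486 at 11.3-fold and 18.5-fold below. The 8 libraries were alike across sexes and pools, and no other library of either sex was as low. The authors' deposited line means are of the same series and are no independent check (r with the line means used here 0.993 in females and 0.999 in males). They have the same pattern, though nearer to the other lines, with 1.14 for line 642 and 1.79 for line 486 in females and 1.31 and 1.41 in males.

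Values around these lines are as follows. The variant density of betaTub97EF was 2.10 in line 642 and 1.91 in line 486 on the log2 scale. The median over lines was 1.69, with 18 lines above line 642 and 43 above line 486. Of the nearby annotated genes, trv was the lowest of 200 lines in line 642 in both sexes, at -1.04 against a line median of 0.04 log2 FPKM in females and 0.63 against 1.74 in males. In line 486 trv was at 0.22 in females and 1.82 in males, near those medians. The gene next to betaTub97EF on one side, CG4815, was the highest of 200 lines in males of line 642, at 4.24 against a line median of 2.37 log2 FPKM, and stood at 3.86 in males of line 486, rank 192 from the lowest. In females, where the line median of CG4815 was -6.78, it ranked 74 from the lowest in line 642 and 159 in line 486. On the other side, CG4849 ranked 4 from the lowest in females of line 486 but 131 in males. In line 642 CG4849 ranked 163 in females and 157 in males. Nep7, the gene beyond CG4849, ranked 67 in females and 75 in males of line 642, and 88 and 159 in line 486. Genes lying 3 or more log2 units under their line median in both sexes numbered 21 in line 642 and 17 in line 486. The median was 15 per line among 10501 genes, with 30 lines above line 642 and 71 above line 486. Males of line 642 ranked 1 of 200 from the highest for alphaTub84D and betaTub85D, at 6.29 and 9.13 log2 FPKM. They ranked 3 for alphaTub84B and 4 for alphaTub85E, while their alphaTub67C, at -1.29, was near the line median of -1.30. The male testis marker sums of line 642, 12.83 and 12.75, were also in the upper part of the range. Males of line 486 ranked 68 from the highest for alphaTub84D, at 5.76 log2 FPKM, and 100 for betaTub85D, at 8.41. Their ranks were 122 for alphaTub84B and 42 for alphaTub85E. Whether any of these has a part in the low betaTub97EF was not tested.

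Line 443 was the low line of alphaTub85E, with -2.52 and -2.84 log2 FPKM in its female pools and -1.62 and -0.18 in its male pools. The median of the other lines was -0.36 in females and 3.64 in males, so that line 443 was 4.99-fold below in females and 23.3-fold below in males. The next lowest male line, 391, had a mean of 2.04, well apart. Line 443 was among the 88 of 200 lines with no variant listed in alphaTub85E. The neighbouring gene side-VII ranked 3 from the lowest in females of this line and 78 in males, and FoxP ranked 48 and 137. In females the lowest line mean belonged to line 138, but there 1 pool had -1.05 and the other held no read, so that value rests on a single library.

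Line 85 was the low line of alphaTub84D, with 4.07 and 3.77 log2 FPKM in its female pools and 5.49 and 5.14 in its male pools. The medians of the other lines were 5.17 in females and 5.69 in males, which makes line 85 2.38-fold below in females and 1.29-fold below in males. It ranked lowest among females and 7 from the lowest among males. Its variant density in this gene, 1.34 on the log2 scale, was the highest value of any line, while 119 of 200 lines had no variant listed. Lines 786 and 821 share that density, with alphaTub84D at 4.86 and 4.95 log2 FPKM in females of line 786 and 5.16 and 5.21 in females of line 821. The adjacent gene alpha-Est5, an esterase, ranked 2 from the lowest in both sexes of line 85, at 3.32 log2 FPKM in females and 3.04 in males against line medians of 4.36 and 4.01. Beyond it, alpha-Est4 ranked 11 in females and 2 in males. On the other side, Rtnl2 ranked 148 in females and 129 in males, and alpha-Est4aPsi 192 and 186.

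**Figure D4:**
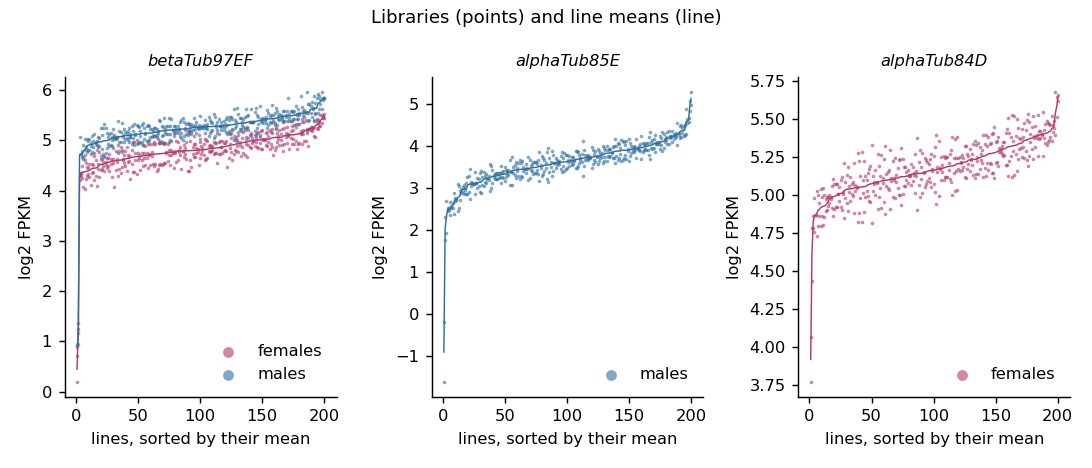
Lines sorted by their mean log2 FPKM (horizontal axis) with both pools of each line as points and the mean as a line, for betaTub97EF in females and males, alphaTub85E in males and alphaTub84D in females. The 2 lowest lines of betaTub97EF, the lowest of alphaTub85E and the lowest of alphaTub84D drop below an otherwise gradual series, and their 2 pools lie close together except for alphaTub85E, at -1.62 and -0.18.

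Other lines were extreme in a tubulin gene together with gonad markers. Line 325 had the lowest betaTub85D in males, 7.35 and 7.40 log2 FPKM, where the next lowest line mean was 7.82, and also the lowest testis marker sums, 10.88 and 10.82. It was lowest for alphaTub84D in males too, at a mean of 5.14. Line 486 had the lowest alphaTub67C in females, 6.72 and 7.01, together with ovary marker sums of 9.85 and 9.95 at the bottom of the female range. These markers move with the values and their part was not tested.

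The male library highest for alphaTub67C was also high in ovary markers, and the female library highest for betaTub85D was high in testis markers. The highest male alphaTub67C, 4.72 log2 FPKM, was in replicate 2 of line 461, whose replicate 1 had 2.80. That library was the highest of 400 male libraries for 8 of 13 ovary markers, and osk, a germ plasm RNA of the oocyte, was at 5.71 against a male median of -2.03. The highest female betaTub85D, 2.64 log2 FPKM, was in replicate 2 of line 397, while replicate 1 held no read. That library was the highest of the female libraries for 4 of 21 testis markers and had Mst87F, a sperm tail gene, at 3.44 and SP at 4.92, against female medians of -1.78 and -9.97. With lines 85, 443, 486 and 642 left out, or lines 31, 45 and 492, all 6 sex differences kept their sign, from -10.84 for betaTub85D to 9.02 for alphaTub67C without the first set of lines.

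Whether the line effects were shared by the sexes was tested for the 3 genes measured well in both. The line-by-sex variance was 0.0117 for alphaTub84D (adjusted p = 5.5e-09), 0.0083 for alphaTub84B (adjusted p = 1.7e-06) and 0.0082 for betaTub97EF (adjusted p = 0.016), from F tests over 200 lines. All 3 were called, as were 75.9% of features, whose median was 0.0139. The cross-sex genetic correlation, which would be 1 if lines ranked alike in both sexes, was 0.266 ± 0.140 for alphaTub84B and 0.479 ± 0.090 for alphaTub84D (SE by jackknife over 200 lines). Both were below the median of 0.671 over 8939 genes called in both sexes. betaTub97EF had 0.960 ± 0.044, and 0.738 without lines 85, 443, 486 and 642. The value of alphaTub84B was 0.501 with the covariance from replicate 1 alone and 0.175 with that from replicate 2 alone. It was 0.194 with the covariance between differently numbered libraries. In each case the line variances came from both replicates.

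Across lines, several tubulin genes moved together within a sex. In males, alphaTub84B and alphaTub84D correlated with a Pearson r of 0.730 and a Spearman rho of 0.710, alphaTub84D and betaTub85D with 0.722 and 0.706, and alphaTub84B and betaTub85D with 0.627 and 0.621 (n = 200 lines; permutation p = 1e-05 each, the smallest that 100000 permutations can give). Without the 2 lines farthest from the median, r was 0.717, 0.694 and 0.621 for these pairs. Relative to the library median it was 0.611, 0.600 and 0.413. alphaTub85E was related more weakly to these 3 genes, with r between 0.198 and 0.236. Without the 2 farthest lines its r was 0.394 with betaTub85D, 0.256 with alphaTub84B and 0.152 with alphaTub84D, and its rho over all lines was 0.358, 0.322 and 0.288. The Benjamini-Hochberg adjusted p over 75080 relations was 0.018 or less for each of these 6 pairs. betaTub97EF, described here without lines 486 and 642, was related to alphaTub84B (r = 0.321, rho = 0.313, permutation p = 1e-05, adjusted p = 2.8e-05, n = 198 lines), and its other 3 pairs missed the threshold. Of these, that with alphaTub84D was called without replicate 2 (r = 0.294, adjusted p over all relations = 0.00012), and that with betaTub85D relative to the library median (r = -0.318). With lines 486 and 642 put back, r with alphaTub84B was 0.045 and not called. Relative to the library median, alphaTub85E with alphaTub84D (r = 0.132) and with betaTub85D (r = 0.165) lost their calls. In all, 7 of the 10 male pairs were called, beside 33.4% of all relations of a tubulin gene with a tested gene.

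In females, alphaTub67C and alphaTub84B had an r of 0.563 and a rho of 0.543 (permutation p = 1e-05, n = 200 lines), and 0.545 without the 2 farthest lines. alphaTub84B and alphaTub84D had an r of 0.294 and alphaTub67C and alphaTub84D 0.220. Relative to the library median, r for these 3 pairs was 0.716, 0.474 and 0.439. betaTub97EF went the other way, with an r of -0.457 and a rho of -0.416 against alphaTub67C (permutation p = 1e-05, n = 198 lines) and an r of -0.205 against alphaTub84B. Against alphaTub84D its r was 0.02 (permutation p = 0.82, n = 198 lines). Of the 6 female pairs 5 were called, beside 61.2% of all relations of a tubulin gene with a tested gene, so the count of pairs called stands over a high background. The pair of betaTub97EF and alphaTub84B was not called with lines 486 and 642 put back (r = -0.072) or without replicate 2 (r = -0.068). That of betaTub97EF and alphaTub67C had an r of -0.188 and a rho of -0.404 over all 200 lines (adjusted p from the t distribution of r = 0.017).

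The same genes followed the marker sums of the gonads. In males, the testis marker sum correlated with betaTub85D at r = 0.901, with alphaTub84D at 0.735, with alphaTub84B at 0.670, with alphaTub85E at 0.211 and with betaTub97EF at -0.012. In females, the ovary marker sum correlated with alphaTub67C at r = 0.857, with alphaTub84B at 0.580, with alphaTub84D at 0.218 and with betaTub97EF at -0.569. Spearman's rho for these 9 relations was 0.882, 0.723, 0.685, 0.334 and 0.0002 in males and 0.809, 0.547, 0.252 and -0.557 in females, in the same order. Adjusted over the 9 relations, the permutation p was 0.0038 or less for all but betaTub97EF in males, where it was 0.86. The correlations between tubulin genes share these markers with them, and how much of each pair's correlation goes with gonad RNA was not tested.

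The 3 genes whose line means were most like those of each tubulin gene, in the sex where it was higher, were named by their r over 200 lines, as a description. For betaTub85D in males these were S-Lap8 (r = 0.961), S-Lap3 (0.956) and S-Lap4 (0.953), leucyl aminopeptidases of sperm. For alphaTub67C in females they were lds (0.842), Nup93-1 (0.841), a nuclear pore subunit, and polo (0.839), a mitotic kinase. For alphaTub84B in females they were Rpn3 (0.663) and Rpt2 (0.651), both of the proteasome's regulatory particle, and Roc1a (0.661), a ubiquitin ligase subunit. For alphaTub84D in males they were CG8136 (0.844), CG4686 (0.834) and CG8728 (0.823). Those of alphaTub85E, Apl (0.445), CR18217 (0.367) and CG11474 (0.350), and of betaTub97EF, GstE12 (0.562), CG6209 (0.559) and lncRNA:CR44127 (0.552), changed when lines 85, 443, 486 and 642 were left out. They were then GstS1 (0.449), chb (0.447) and CG31538 (0.446) for alphaTub85E, and ATP6AP2 (0.679), Pdhb (0.668) and ND-B15 (0.657) for betaTub97EF. Over all 200 lines, the top 1% of 9312 genes compared in females began at an r of 0.799 for alphaTub67C and 0.565 for alphaTub84B. Of 12150 genes compared in males, it began at 0.892 for betaTub85D and 0.730 for alphaTub84D. For alphaTub85E it began at 0.255 and for betaTub97EF at 0.322. The points share library, depth and the mix of tissues in a whole fly.

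Variant density, the deposited number of sequence variants per length of a gene in each line, was set against its line means. In females, alphaTub67C was lower in lines with more variants (r = -0.203, rho = -0.279, adjusted p = 0.026 over 10638 features, n = 200 lines). Without the 5 lines with no variant listed, r was -0.188 (adjusted p = 0.043). The other 3 tubulin genes tested in females and the 5 tested in males were not called, with r from -0.055 to 0.131. By comparison, 19.5% of features were called in females and 24.9% in males. A line with no variant listed was common in alphaTub84D, 59.5% of lines, and alphaTub85E, 44% of lines, but rare in alphaTub67C, 2.5%.

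Genes that act on tubulin split between the sexes by group, all values being female minus male log2 differences. The gamma-tubulin ring complex, which nucleates microtubules, had 12 members tested, 8 higher in females and 4 in males. gammaTub37C, the maternal gamma-tubulin, differed by 9.88 ± 0.16 (SE) with females higher, and t-Grip91, a ring subunit of the testis, by -10.73 ± 0.12. Folding factors, the chaperonin and prefoldin subunits and the tubulin cofactors, had 13 of 18 tested, of 19 listed, higher in females and 0 higher in males. Their median was 1.50, and the largest difference was that of CCT2, a chaperonin subunit, at 2.97 ± 0.02.

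Tubulin modifying enzymes went mostly the other way, with 2 of 14 tested, of 15 listed, higher in females and 8 in males, at a median of -2.13. Of these TTLL15 differed by 1.10 ± 0.03 (SE) and TTLL1A, of the tubulin ligase family that glutamylates or glycylates tubulin tails, by -11.15 ± 0.14. Axonemal dyneins, tektins and transport proteins of cilia had 1 of 11 tested, of 15 listed, higher in females and 10 in males, at a median of -5.77. Oseg1, an intraflagellar transport protein, was the female-higher member at 1.48 ± 0.04, and Tektin-A, a filament protein of the axoneme, was at -12.27 ± 0.17.

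Proteins that bind, sever or steer microtubules were mixed, with 7 of 21 higher in females and 8 in males, from Map60 at 3.50 ± 0.02 (SE) to Klp59C, a kinesin, at -12.44 ± 0.17. Motors of cytoplasm and spindle had 9 of 22 higher in females and 1 in males. nod, a kinesin of female meiosis, was at 4.72 ± 0.03, and unc-104, a kinesin of axonal transport, was at -1.21 ± 0.01. For all lists the median feature stood at -0.51 log2 units, with 20.8% of features called higher in females and 37.2% in males. Relative to the library median the counts became 17 of 18 female-higher for folding factors and 16 of 22 female-higher for motors. Male-higher microtubule-binding genes went to 4. On that scale, 4738 of the 15447 features were called higher in females and 4040 higher in males.

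**Figure D5:**
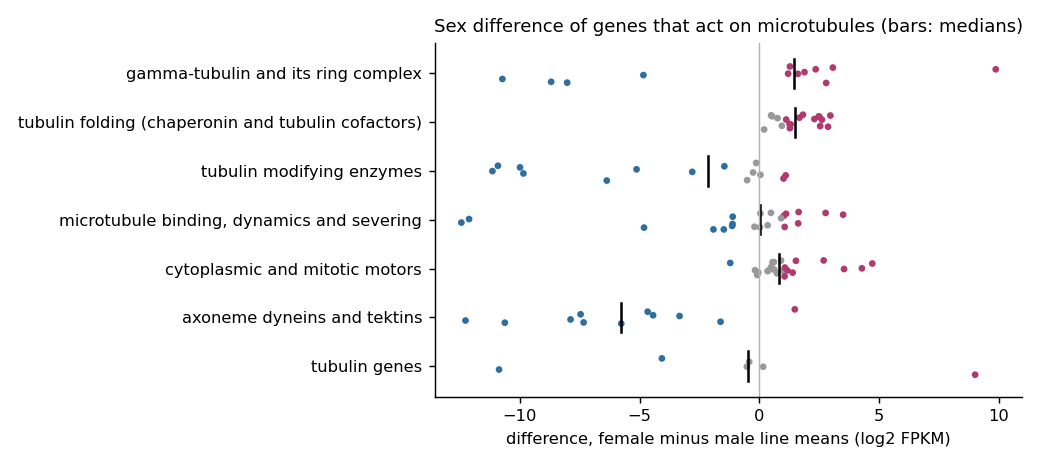
Difference between female and male line means (log2 FPKM, horizontal axis; right of 0 is higher in females) for each tested gene of 6 lists and for the 6 tubulin genes, with bars at medians; colour marks differences of at least 1. Folding factors lie at or above 0 with a median of 1.50, axonemal genes lie mostly far to the left with a median of -5.77, and the tubulin genes span -10.87 to 9.02.

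Markers of other tissues moved with sex as well. All 21 testis markers were higher in males, and 10 of 13 ovary markers were higher in females. Of the neuron markers 5 of 6 were higher in males, with Syx1A at -0.29 ± 0.02 (SE), or 0.25 relative to the library median, and brp at -1.73 ± 0.02. Of the muscle markers 6 of 7 were higher in males, with Act88F at -0.89 ± 0.05, or -0.35 relative to the library median, and Mhc at -1.35 ± 0.02. Relative to the library median these counts were 3 of 6 for neurons and 0 of 7 for muscle, beside 4040 of 15447 features. Of 8 markers of chordotonal and ciliated sensory neurons, cells in which alphaTub85E is described, 3 had levels high enough to test. Of them 2, Root and tilB, were higher in males, at -2.74 and -2.44. Rfx went the other way, at 0.25, or 0.79 relative to the library median. The part of these tissues in the sex differences of the tubulin genes was not tested.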

How the data were processed

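The 800 strand-specific total RNA libraries were made from pooled whole flies after rRNA depletion and sequenced as 125 bp single reads in 50 pools of 16, per the labels' protocols. The submitters' processing notes name cutadapt, BWA 0.7.10, STAR 2.4.0e, Cufflinks 2.2.1, HTSeq and edgeR, with builds BDGP5 and dm3; the role of each tool is not given in the sources used here. The authors deposited log2 FPKM with 0.001 FPKM added, variant density per gene and line on the log2 scale, and log2 line means by sex (betaTub85D has no row in the female means and alphaTub67C none in the male means). Of all values, 29.6% were at the floor.

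Symbols came from an annotation of release 115, whose build differs, so no coordinates are given. The tubulin genes, the gene lists and lines 85, 443, 486 and 642 were chosen with earlier results of these data known. The genes named are all tubulin genes, the 3 most alike for each, and the extremes of each list in each direction; neighbours, marker genes and lines described singly were picked after their values were seen.

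Sex differences were tested with limma 3.58.1 (R 4.3.3) on 200 differences of line means, for features with a mean of at least 0 log2 FPKM in a sex, with Benjamini-Hochberg adjustment over all features. Line variation and the line-by-sex term used F tests with limma's moderated error variances. The cross-sex genetic correlation is the covariance of line means over the root of the product of line variances, and can exceed 1. Correlations used 100000 two-sided permutations. Nothing in the labels says whether the 2 pools of a line came from separate cultures, so line p-values measure the spread between pools. Depth came from 8537 features with low values. Each library was scaled until its low values were whole multiples of 1 read within 0.05 reads, so the 100% reached is by construction. The absolute scale used exon lengths from the annotation, found for 1878 of these features. Intervals, 95%, cover these samples only. No library repeated another (highest correlation 0.985). The tests of sex difference, line variation and line by sex were checked on simulated data.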

Additional observations from a re-analysis of the deposited data

Results flagged for a closer look

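The line effect differed between the sexes in 3 tubulin genes, by the test of line-by-sex variance itself. The variance was 0.0083 for alphaTub84B, 0.0117 for alphaTub84D and 0.0082 for betaTub97EF, in squared log2 units over 200 lines. Of all features, 75.9% were called by this test, and their median variance, 0.0139, was higher than that of each of the 3 genes. The line in which females exceeded males most was 492 for alphaTub84B, by 0.65 log2 units. The same line had the largest female excess of alphaTub84D, 0.15, a gene for which males were higher in 198 of 200 lines.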

How the results depend on the processing

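Of the values for single genes and pairs, 259 kept direction and call under the alternatives run, 5 lost the call, 2 gained it and 9 changed sign. The sex differences of alphaTub84D and betaTub97EF changed sign when libraries were median-centred, to 0.025 and 0.12 log2 units, female minus male. The other 7 were uncalled pairs of betaTub97EF: with alphaTub84D in females -0.117 median-centred, from -0.0096 to 0.126 when a replicate was left out and -0.055 with all 200 lines (0.016 as reported), with alphaTub84D in males -0.020 median-centred and -0.099 with all lines (0.141), with betaTub85D in males from -0.0089 to 0.103 when a replicate was left out (-0.065), and with alphaTub85E in males -0.078 with all lines (0.070). With no filter on low values, 4935 features were called female-higher and 13949 male-higher (3215 and 5749 with it), 17437 for line variation in females and 22050 in males (10077 and 13452), and 13735 for line by sex (7968). A minimum mean of 2 log2 FPKM gave 3504 male-higher; more or fewer features are tested by construction. The cross-sex correlation of alphaTub84B ran from 0.175 to 0.501 when a replicate was left out of the covariance, and was 0.162 median-centred. A plain Pearson correlation of line means gave 0.136 for alphaTub84B, 0.317 for alphaTub84D and 0.846 for betaTub97EF. The genetic correlation of betaTub97EF, 0.960, was 0.738 without lines 85, 443, 486 and 642. That alternative was chosen after seeing the data. So was leaving lines 486 and 642 out of the pairs, marker relations and level order of betaTub97EF, and exu out of the ovary sum. With all 200 lines, r of betaTub97EF with alphaTub67C in females was -0.188, still called. With alphaTub84B it was -0.072 in females and 0.045 in males, neither called. Without replicate 2 the female r was -0.068. Median-centred, its male r with betaTub85D was -0.318 and called, and those of alphaTub85E with alphaTub84D and betaTub85D, 0.132 and 0.165, were not. Causes were not tested. Replicate numbers did not meet the rule for pairing the sexes: the correlation of their replicate differences had a median of 0.077, above 0.1 in 83 of 200 lines and under -0.1 in 9. Replicate 1 had the higher mean in all 6 genes and both sexes, but in some cases the excess was not clear of its SE. For alphaTub67C it came to 0.007 ± 0.016 log2 units among females (SE over 200 lines) and 0.198 ± 0.144 among males. Among females it came to 0.096 ± 0.075 for alphaTub85E and 0.369 ± 0.215 for betaTub85D. The remaining differences were larger relative to their SE. Whether replicate 1 was also higher over all features was not tested. With the number as a replicate block the line-by-sex variance of betaTub97EF was 0.0173, against 0.0082 without it, and no sex difference lost its call. Leaving out a replicate gives no test of line variation or line by sex, since no spread between pools is left. Depth limits alphaTub67C in males and betaTub85D in females, with medians of 7.99 and 5.00 reads.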
